A study of Mus musculus with 32 samples.

Results

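Arc is the gene of the activity-regulated cytoskeleton-associated protein, and its level was followed library by library in cultured mouse hippocampal neurons. It is 1 of 51267 features of the total RNA table, was matched by symbol (Entrez gene 11838), and occupies chr15:74669081-74672570 in GRCm38.p6, a span of 3490 bases in the RefSeq gene table. The cultures were primary neurons from P0 pups and were kept to day 16 in vitro (DIV16). Every culture was exposed for 30 minutes to 1 of 3 agents: Forskolin (FSK) at 50 µM, a direct activator of adenylyl cyclase that raises cAMP; DHPG at 30 µM, which stimulates metabotropic glutamate receptors of group I; or the same volume of the solvent DMSO. The total RNA assay held 6 FSK, 6 DHPG and 4 DMSO libraries, and the same numbers of miRNA libraries stood beside them. The labels give neither genotype nor strain, and do not state whether replicates were separate cultures or litters, so p-values measure only the spread between libraries, which may be technical.

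Arc is an immediate-early gene, transcribed within minutes of synaptic activity from a pre-existing set of transcription factors that includes SRF, MEF2 and CREB. Its mRNA travels into dendrites and is translated there, and group I metabotropic glutamate receptors are known for driving that translation. Arc protein binds endocytic proteins, lowers surface AMPA receptors, and folds like a retroviral Gag protein.

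The libraries differed in ways that the labels do not describe. A deep set of 7 libraries (replicates 2 to 4 of DMSO, 6 of DHPG, and 4 to 6 of FSK) carried at least 38409918 counts each and 10.8 to 27.7% mitochondrial rRNA. The other 9, the shallow set, carried at most 24892959 counts and 1.47 to 2.92% mitochondrial rRNA. Only 1 DMSO library was shallow and only 1 DHPG library was deep, so treatment and library set were partly confounded. The cultures were mixed: excitatory neuron markers (12 of 12 tested) summed to 1736 to 2158 counts scaled to library size (CPM) in DMSO, 1521 to 2208 in DHPG and 1116 to 1681 in FSK, while astrocyte markers (8 of 8) summed to 3148 to 5428, 2538 to 4509 and 3680 to 6737. FSK 4 and FSK 5 stood apart, with a mean log2 CPM over the microglia markers of 3.66 and 4.63 against -0.60 to 1.42 in the other 14 libraries. No listed cell marker was at 0 in every library. In bulk RNA, fewer cells of a type and less RNA per cell cannot be told apart.

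Arc was low in the solvent libraries and, relative to its mean, varied more there than under either agent. The counts were 485, 3076, 1392 and 1488 in DMSO 1 to 4. Scaled to library size and composition with TMM factors (trimmed mean of M values), they gave 21.4, 80.0, 38.4 and 34.5 CPM. DMSO 2 was the highest and DMSO 1, the shallow library, the lowest, with a 95% Poisson interval of 19.6 to 23.4 CPM that covers counting error only. The group mean was 43.6 ± 25.4 CPM (SD, n = 4), a coefficient of variation of 58.2%, although its SD in CPM was the smallest of the 3 groups. DMSO 2 was also the highest DMSO library for some other activity-regulated genes. These were the transcription factor genes Fos (163.9 CPM against 24.7 to 96.3 in the other 3), Fosb (11.3 against 2.98 to 3.98), Npas4 (91.6 against 7.29 to 22.4) and Egr1 (115 against 23.0 to 76.6). Homer1 did not follow: DMSO 2 was the lowest for it, at 49.83 CPM against 49.97 to 75.49.

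With DHPG, Arc counts were 2203, 2918, 3817, 3786, 3795 and 4792 in libraries 1 to 6. The levels were 96.6, 136, 192, 161, 172 and 122 CPM in the same order. All 6 DHPG libraries lay above all 4 DMSO libraries, although the lowest DHPG library exceeded the highest DMSO library by a ratio of only 1.21. The mean was 147 ± 35.1 CPM (SD, n = 6) and the coefficient of variation 24.0%.

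With FSK, Arc counts were 5467, 6484, 6207, 7888, 6947 and 7082. The levels were 235, 240, 228, 140, 169 and 177 CPM for libraries 1 to 6. The 3 shallow FSK libraries agreed closely at 234 ± 6.29 CPM (SD, n = 3) and lay above the 3 deep ones at 162 ± 19.3 CPM (n = 3), with no overlap between the sets. The mean over both sets was 198 ± 41.6 CPM (SD, n = 6). Every FSK library exceeded every DMSO library, by a ratio of 1.75 at the nearest pair, whereas the FSK and DHPG ranges overlapped and 3 of 6 FSK libraries lay above every DHPG library (all 6 did so for 3.21% of features).

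**Figure D1:**
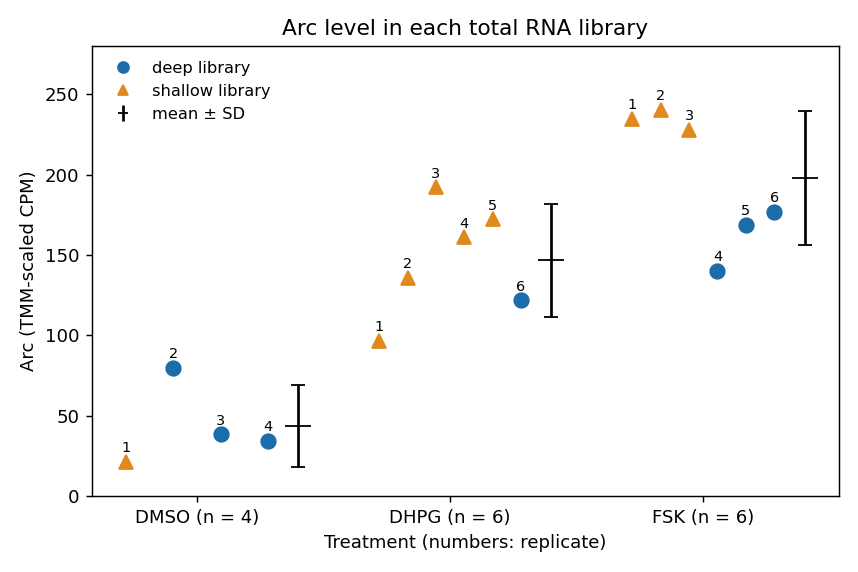
Arc level (TMM-scaled CPM, linear axis) in each of the 16 total RNA libraries, by treatment. Points are libraries, numbered by replicate, circles deep and triangles shallow; black bars give the mean ± SD. Each DHPG and FSK library lies above the highest DMSO library at 80.0 CPM, and the deep FSK libraries lie among the DHPG libraries.

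Forskolin raised Arc against the solvent. The edgeR quasi-likelihood log2 fold change was 2.18 ± 0.31 (SE; 95% interval 1.52 to 2.84), a 4.54-fold difference, with an adjusted p of 0.0070. Of the 17173 features tested, 139 passed in this comparison (0.809%; 21.3% had an unadjusted p under 0.05), and Arc had the seventh smallest p and the rank 156 by fold change. Complete separation of the 2 groups with FSK higher was seen for 621 features (3.62%). An exact two-sided permutation test of the library values gave a log2 difference of 2.32 with p = 0.0048, the smallest p that 4 against 6 libraries can give (adjusted over the 3 comparisons, 0.0071).

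The forskolin difference held within each library set, with different sizes. Among the deep libraries (3 against 3) it was 1.67 ± 0.29 on the log2 scale (edgeR adjusted p = 0.0036). Among the shallow libraries (3 against 1) it was 3.45 ± 0.51 (edgeR adjusted p = 0.047), and there it rests on DMSO 1, whose spread is assumed to be that of the other groups. The test of the difference between the sets gave -1.78 ± 0.53 with an unadjusted p of 0.0046 and an adjusted p of 0.46 in edgeR, so the difference did not pass over all features. With labels permuted only within library sets, the exact p for FSK against DMSO was 0.0125 (adjusted 0.019), the smallest that its 80 arrangements can give.

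Arc was higher with DHPG in every library, but the edgeR test over all features did not call it. The log2 fold change was 1.75 ± 0.31 (95% interval 1.10 to 2.39), a 3.36-fold difference, with an unadjusted p of 3.0e-05 and an adjusted p of 0.26. Just 1 feature of 17173 passed (0.00582%), and 2129 (12.4%) had an unadjusted p under 0.05; Arc had the second smallest p of all. Among the 14707 features with an average log2 CPM of at least 0, Arc ranked 12 by fold change. Groups that did not overlap, with DHPG higher, were found for 110 features (0.641%).

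As a single value over libraries, the DHPG difference passed, but Arc was chosen with earlier results of these data known. The exact p-values given for Arc do not allow for that choice. The exact permutation test gave a log2 difference of 1.88 with p = 0.0048 (adjusted over the 3 comparisons, 0.0071), and permuting within library sets gave an exact p of 0.042. That is the smallest p its 24 arrangements can give, since the deep set has 1 DHPG library against 3 and the shallow set 5 against 1. The edgeR values within the sets were 1.26 ± 0.38 (deep, adjusted p = 0.86) and 2.82 ± 0.48 (shallow, adjusted p = 0.37). Leaving out DMSO 2 brought the edgeR value to 2.24 with an adjusted p of 0.0049, and DESeq2 on all 16 libraries gave 1.76 with an adjusted p of 3.3e-05. The label of a gene induced by both agents therefore holds for the order of the libraries in both comparisons, and for a call across all features in edgeR only with forskolin.

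The difference between FSK and DHPG passed some tests and not others. The edgeR log2 fold change was 0.43 ± 0.26 with a 95% interval of -0.11 to 0.98 and an adjusted p of 0.19, in a comparison in which 5283 features passed (30.8%; 45.2% had an unadjusted p under 0.05). The exact permutation p was 0.048 for a log2 difference of 0.44 (adjusted over the 3 comparisons, 0.048). Leaving out 1 library at a time moved that exact p between 0.026 and 0.10, and it stayed under 0.05 in 4 of 12 such tests. Within the library sets the exact p was 0.0089 (adjusted 0.019), with edgeR values of 0.41 ± 0.41 in the deep set (3 against 1) and 0.63 ± 0.25 in the shallow set (3 against 5; unadjusted p = 0.025, adjusted p = 0.16).

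**Figure D2:**
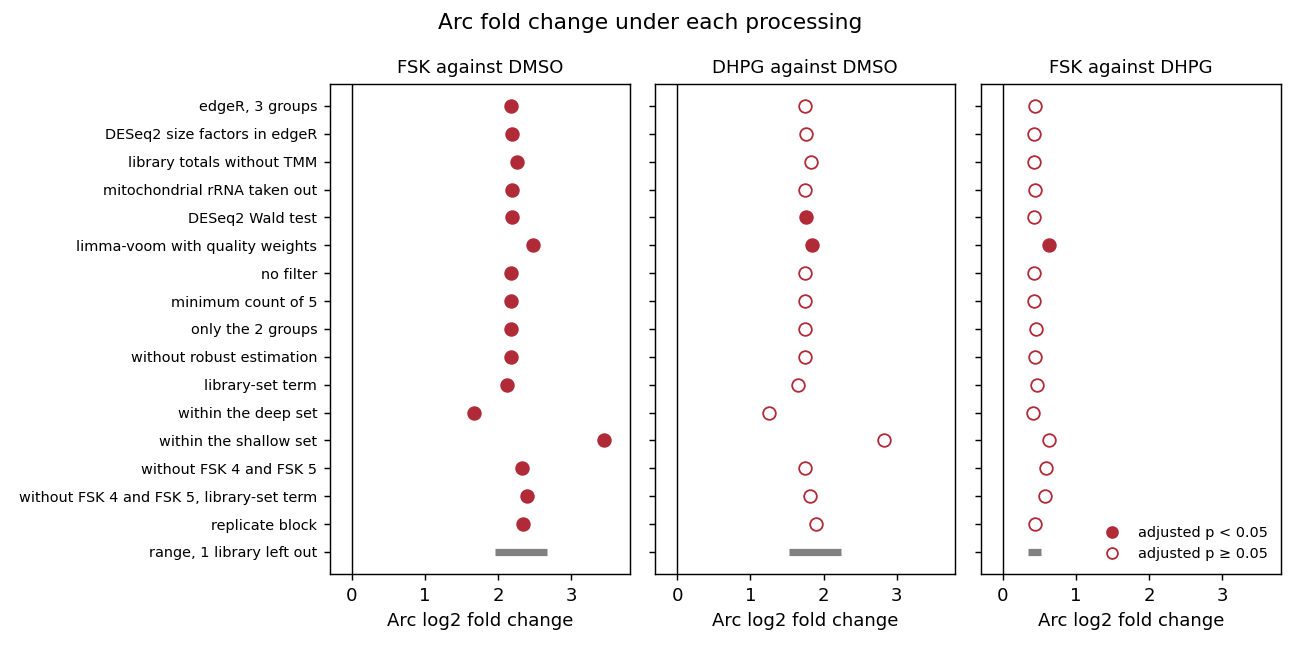
Arc log2 fold change (horizontal axis) in each comparison under each processing (rows), filled where the adjusted p is under 0.05; the grey bar is the range over fits that leave out 1 library. FSK against DMSO is filled in every row, DHPG against DMSO in those of DESeq2 and limma-voom, and FSK against DHPG in that of limma-voom.

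Arc was also read against genes of the cells that make it. The mean log2 CPM of the excitatory neuron markers was 5.52 to 6.04 in DMSO, 5.35 to 5.87 in DHPG and 5.07 to 5.67 in FSK, where FSK 4 and FSK 5 were the lowest. Relative to the mean log2 CPM of the 12 excitatory neuron markers, Arc ran from -1.10 to 0.64 in DMSO, from 1.06 to 2.12 in DHPG and from 1.80 to 2.41 in FSK. The deep and shallow FSK libraries came closer together on this scale, at 1.80 to 2.17 and 2.31 to 2.41. Exact permutation tests gave log2 differences of 2.72 for FSK against DMSO (adjusted p = 0.0071), 2.17 for DHPG against DMSO (adjusted p = 0.0071) and 0.55 for FSK against DHPG (adjusted p = 0.032). The last was over 0.05 in 4 of 12 tests with 1 library left out, up to an exact p of 0.074. Against 4 pan-neuronal genes (Rbfox3, Map2, Tubb3 and Snap25) the differences were 2.55, 1.93 and 0.62 (adjusted exact p = 0.0071, 0.0071 and 0.011).

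The authors' deposited tables list Arc in both comparisons with DMSO. The FSK table gives a log2 fold change of 2.18 with a standard error of 0.32 and an adjusted p of 1.18e-08, and DESeq2 run again on the same 2 groups gave 2.18 and 1.20e-08. In the DHPG row of the authors' deposited table, the log2 fold change is 1.51 with a standard error of 0.51, a mean of 1500 normalised counts and an adjusted p of 0.027. DESeq2 run again on those groups gave 1.76 ± 0.31, a mean of 2908 normalised counts and an adjusted p of 5.4e-05. In that row of the authors' deposited table the statistic is -3.80, while the fold change divided by its standard error is 2.97.

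Arc was the only feature for which that happened. The statistic and the ratio differed by more than 0.05 for 1 of 32890 features with a statistic in the authors' deposited DHPG table, and for 0 of 34055 in the FSK table. Among 12029 features with a mean of at least 100 normalised counts, the rerun fold change differed from that of the authors' deposited table by 0.249 for Arc and by at most 0.0168 for any other. The deposited counts, not this row, underlie every other value given here.

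Arc was among the stronger responders of its class. Of 25 other immediate-early transcription factor genes tested, 9 rose with FSK against DMSO and 0 fell (background 0.349% higher and 0.46% lower), with a median log2 fold change of 0.93 beside 0.02 over all features, and 7 of the 25 had a larger fold change than Arc. Fosb, an AP-1 subunit, rose by 3.996 ± 0.45 (adjusted p = 0.00067), from 5.34 to 85.8 CPM. Maff, a small Maf factor, rose by 3.52 ± 0.51 (adjusted p = 0.0072), Nr4a2, an orphan nuclear receptor, by 2.40 ± 0.33 (adjusted p = 0.0051), and Egr2, a zinc-finger factor, by 1.81 ± 0.27 (adjusted p = 0.0072). Without FSK 4 and FSK 5, 7 of the 25 rose, and with a library-set term 15 rose and 1, Srf, fell, in a fit that called 1622 features.

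The immediate-early effector genes, which like Arc encode no transcription factor, gave a similar picture with FSK. Of 21 tested, 6 rose and 0 fell (background 0.349% higher and 0.46% lower, median 0.37), and 3 had a larger fold change than Arc. Arl4d, a small GTPase gene, rose by 2.66 ± 0.23 (adjusted p = 4.5e-05), and Rgs2, whose product limits Gq signalling, rose by 1.39 ± 0.12 (adjusted p = 4.5e-05). Ptgs2, the inducible cyclooxygenase gene, rose by 1.93 ± 0.28 (adjusted p = 0.0072). The kinase gene Sik1 rose by 1.32 ± 0.25 (adjusted p = 0.025). Without FSK 4 and FSK 5, 4 of the 21 rose, and with a library-set term 8 rose, in the fit that called 1622 features.

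Under DHPG, Arc had a larger fold change than nearly all of these genes. Only 1 of the 25 transcription factor genes, Fosb at 1.83 ± 0.40 (5.34 to 19.0 CPM, adjusted p = 0.40), and none of the 21 effectors had a larger value than the 1.75 of Arc. No gene of either list passed in edgeR (12 of 25 and 4 of 21 had an unadjusted p under 0.05), and the medians were 0.35 and 0.19 beside -0.01 over all features. Egr2 stood at 1.41 ± 0.27 (adjusted p = 0.33), Arl4d at 0.91 ± 0.22 (adjusted p = 0.40) and Rgs2 at 0.50 ± 0.12 (adjusted p = 0.40). Both comparisons use the same DMSO libraries.

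Arc and these genes differed in the size of the step between the agents. In FSK against DHPG, 12 transcription factor genes were higher and 1 lower (background 16.3% and 14.4%), and 18 of 25 had a larger difference than the 0.43 of Arc. Of the effectors, 9 were higher and 2 lower (same background), and 12 of 21 exceeded Arc. Fosb was 2.17 ± 0.35 higher with FSK (adjusted p = 0.016) and Arl4d 1.75 ± 0.19 higher (adjusted p = 0.0016). Without FSK 4 and FSK 5, the calls in this comparison came down to 0 transcription factor genes and 3 effectors, and over all features to 3.

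Of the features tested with an average log2 CPM of at least 0, those most like Arc across the 16 libraries included 4 immediate-early genes. Over 14706 features, 6 had a Pearson correlation with Arc of at least 0.8 in log2 CPM and 0 of at least 0.9, and the median was -0.02. In order, the 10 highest were Neil1 (0.85), a DNA glycosylase gene, Tgds (0.85), Egr2 (0.84), Fosb (0.81), Nr4a1 (0.81), 2810049E08Rik (0.81), Gm10925 (0.79), 1700016P03Rik (0.78), Gm10845 (0.77) and Fos (0.77). These are descriptions over libraries that share treatment, depth and cell makeup. Without DMSO 1 and DMSO 4, the 2 libraries farthest from the median of Arc, the values of the 4 immediate-early genes came to 0.66 for Egr2, 0.71 for Fosb, 0.56 for Nr4a1 and 0.51 for Fos.

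High correlation went with very different slopes and levels. Neil1 moved from 4.29 CPM in DMSO to 6.86 in DHPG and 6.59 in FSK, and only its FSK difference passed (log2 0.62, adjusted p = 0.034). Egr2 had means of 5.55, 14.8 and 19.5 CPM, the same order as Arc with a small step between the agents. Gm10925, an unprocessed pseudogene in the authors' deposited table whose reads could be shared with its parent gene, went from 30.5 to 164 and 261 CPM with adjusted p of 0.40 and 0.079. The transcript 1700016P03Rik, host of miR-212 and miR-132, went from 0.98 to 3.02 and 12.6 CPM and passed with FSK (3.66, adjusted p = 0.0016). Among the lowest correlations were those of Gm10762 (-0.75), Mettl15 (-0.73) and Gm715 (-0.70), and none of these 3 passed in any of the 3 comparisons.

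After the mean of each treatment within each library set was taken away, other genes led. The 10 highest were Hgh1 (0.93), Fibcd1 (0.93), Pcca (0.90), Itga8 (0.87), Slc19a2 (0.87), Nt5dc3 (0.87), Diablo (0.87), Adamtsl2 (0.87), B3glct (0.86) and Kctd5 (0.85), over 14 libraries with a deviation. None of them (0 of 10) was among the 10 that led before. On this measure the 4 immediate-early genes had -0.02 (Fos), 0.10 (Egr2), 0.13 (Nr4a1) and 0.24 (Fosb).

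Within the DHPG group Arc and the other immediate-early genes even ranked the libraries differently. DHPG 1 and DHPG 6 held the lowest Arc levels, 96.6 and 122 CPM, and the highest Fos levels, 301 and 347 CPM against 114 to 184 in the other 4. They were highest too for Fosb (30.5 and 32.3 against 10.3 to 15.2 CPM), Nr4a1 (63.8 and 82.8 against 31.6 to 40.8) and Egr2 (21.2 and 20.1 against 10.5 to 13.9). In DHPG 2 to 5, all shallow, Fos and Fosb were near the level of DMSO 2, at 163.9 and 11.3 CPM. Arc there, at 136 to 192 CPM, was above the 80.0 CPM of DMSO 2. DMSO 2 is a deep library and the highest of its group for these 3 genes. In DMSO 1, the only shallow DMSO library, Fos was at 24.7, Fosb at 3.09 and Arc at 21.4 CPM, all below DHPG 2 to 5. Among the FSK libraries, FSK 4 and FSK 5 had the highest Fos (723 and 796 against 393 to 458 CPM) and the lowest Arc (140 and 169 CPM). These orders were seen after the values were known and were not tested.

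**Figure D3:**
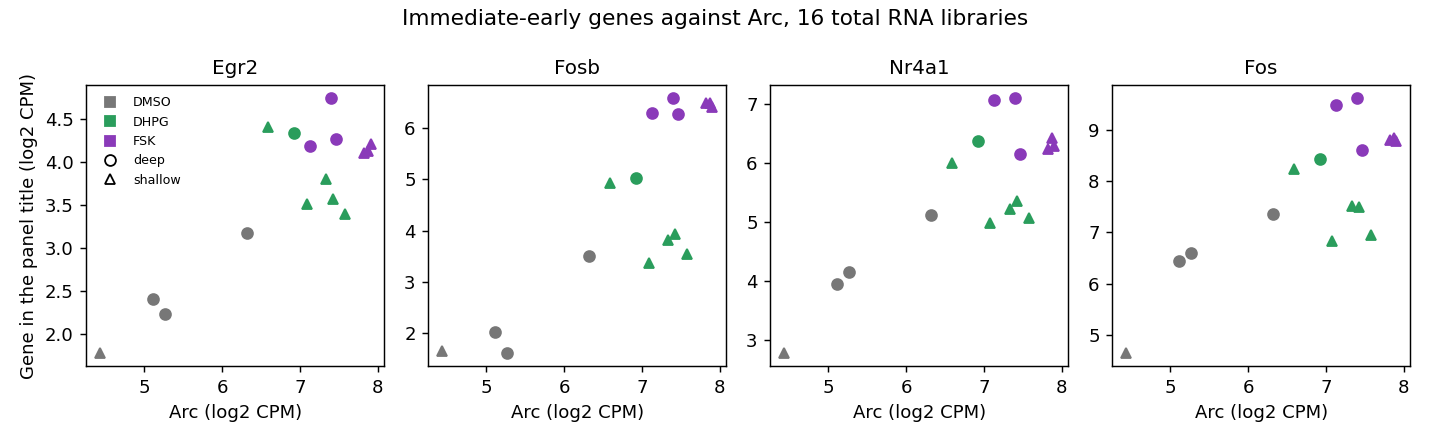
Log2 CPM of Egr2, Fosb, Nr4a1 and Fos (vertical axes, 1 panel each) against log2 CPM of Arc (horizontal axis) in 16 libraries, coloured by treatment, circles deep and triangles shallow. The 2 DHPG libraries with the lowest Arc stand above the other 4 in every panel, and Fosb separates FSK from DHPG where Arc does not.

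The ratio of Arc to Fosb differed between the agents. As log2 Arc minus log2 Fosb, it was 3.09 ± 0.41 in DMSO (SD, n = 4), 3.06 ± 1.01 in DHPG (n = 6) and 1.18 ± 0.30 in FSK (n = 6). FSK was below DHPG by -1.88 with an exact permutation p of 0.0022, the smallest that 6 against 6 can give (adjusted over 4 ratios, 0.0087), and by -1.61 within library sets (adjusted exact p = 0.018). The ratios to Fos (-1.01, adjusted exact p = 0.11), Nr4a1 (-0.59, adjusted 0.28) and Egr2 (0.01, adjusted 0.98) did not pass. These 4 genes were picked for their likeness to Arc in the same libraries.

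The calls among factors that drive Arc transcription depended on the library-set term. Of 15 tested, 0 were called in edgeR with FSK and 0 with DHPG (3 and 3 at an unadjusted p under 0.05; background 0.809% and 0.00582%), with medians of -0.15 and -0.35. With a library-set term 4 of the 15 passed in FSK against DMSO, Egr1 higher and Crtc1, Mef2d and Srf lower, and 0 passed with DHPG. The fit with the term called 1622 features in FSK against DMSO, beside 139 without it. Without the term Crtc1, a CREB coactivator gene, stood at -0.59 ± 0.15 with FSK (adjusted p = 0.065) and Srf, serum response factor, at -0.53 ± 0.15 (adjusted p = 0.082). In FSK against DHPG, Creb1, the CREB gene itself, was 0.84 ± 0.18 higher (adjusted p = 0.016). It was the 1 of 15 that passed, beside 30.8% of all features. Without FSK 4 and FSK 5, 0 of 15 passed, in a fit that called 3 features in all. At an unadjusted edgeR p under 0.05 there were 2 of 15 with all libraries and 2 without these libraries.

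One gene that handles Arc mRNA rose with FSK. Hnrnpa2b1 encodes hnRNP A2, which carries Arc mRNA into dendrites. It went from 38.3 to 85.1 CPM with FSK against DMSO (1.15 ± 0.17, adjusted p = 0.0072). It was the 1 of 16 genes of mRNA transport, translation and decay that passed, with or without FSK 4 and FSK 5. With all libraries 6 of the 16 had an unadjusted edgeR p under 0.05. Of all features, 0.809% passed in FSK against DMSO and 21.3% had an unadjusted p under 0.05. With DHPG, Hnrnpa2b1 was at 44.8 CPM. In DHPG against DMSO 0 of 16 passed in edgeR (2 at an unadjusted p under 0.05), beside 0.00582% of all features. In FSK against DHPG, 6 of the 16 were higher and 3 lower, beside 16.3% and 14.4% of all features. Fmr1, the fragile X repressor of Arc translation, was 0.73 ± 0.18 higher (adjusted p = 0.017) and its paralogue Fxr1 0.59 ± 0.15 higher (adjusted p = 0.017). Eef2k, the kinase that slows elongation downstream of metabotropic receptors, was 0.31 lower (-0.31 ± 0.08, adjusted p = 0.019). Without FSK 4 and FSK 5, 0 of the 16 passed in FSK against DHPG, in a fit that called 3 features in all. In that fit 8 of the 16 had an unadjusted edgeR p under 0.05, beside 11 with all libraries.

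Among genes of Arc protein partners and of AMPA receptors, the values in FSK against DMSO were mostly negative with all libraries. Their medians were -0.24 and -0.16, and without FSK 4 and FSK 5 they were -0.14 and 0.06. Neuron markers were also mostly negative with all libraries, with medians of -0.45 (excitatory, 1 of 12 positive) and -0.32 (inhibitory, 3 of 10 positive). Of 18 partner genes, 0 passed against DMSO with FSK and 0 with DHPG in edgeR (6 and 2 at an unadjusted p under 0.05; background 0.809% and 0.00582%), and 1 of 18 had a positive value with FSK. With a library-set term 3 of the 18 were lower with FSK, Camk2b, Dbn1 and Sptbn4, in a fit that called 1622 features. Without the term Dbn1, drebrin, stood at -0.49 ± 0.13 (adjusted p = 0.076) and Camk2a, a kinase subunit, at -0.49 ± 0.15 (adjusted p = 0.093) with FSK. In FSK against DHPG 6 of 18 were lower (14.4% of all features), among them Camk2b (-0.54 ± 0.15, adjusted p = 0.021) and Ap2m1, the clathrin adaptor subunit that Arc binds (-0.59 ± 0.17, adjusted p = 0.022). With a library-set term 5 of 18 were lower in FSK against DHPG, in a fit that called 4007 features. Without FSK 4 and FSK 5, 0 of 18 passed there, in a fit that called 3 features. Of 17 genes of AMPA receptors and their auxiliary proteins, Cnih2, cornichon, was the 1 that fell with FSK against DMSO, from 222 to 138 CPM (-0.69 ± 0.13, adjusted p = 0.025), and 0 passed with DHPG. With a library-set term, 3 of 17 were lower in FSK against DMSO (Cnih2, Cacng8 and Nptx1), in the fit that called 1622 features. Without FSK 4 and FSK 5, 0 of 17 passed in FSK against DMSO, in a fit that called 38 features. Between FSK and DHPG 1 of the 17 was higher with FSK, the receptor subunit gene Gria3 (0.76 ± 0.24, adjusted p = 0.029). Lower were 4 of the 17, Cnih2, Nptx1, Nptxr and Pick1. Of all features, 16.3% were higher and 14.4% lower. Without FSK 4 and FSK 5, 0 of 17 passed in FSK against DHPG, in a fit that called 3 features in all. In that fit 6 of 17 had an unadjusted edgeR p under 0.05, beside 9 with all libraries. Of the 4 turnover genes none passed against DMSO, and in FSK against DHPG Ube3a, a ubiquitin ligase gene, was 0.94 ± 0.25 higher (adjusted p = 0.019) and Gsk3a, a kinase gene, was at -0.42 ± 0.11 (adjusted p = 0.018). Ube3a and Gsk3a also passed there with a library-set term, and 0 of the 4 passed without FSK 4 and FSK 5.

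No other gene of a Gag-like protein passed higher against DMSO, with all libraries, without FSK 4 and FSK 5, or with a library-set term. Of 25 symbols listed, some of them older names, 21 were in the table and 18 were tested; 0 passed with FSK and 0 with DHPG against DMSO in edgeR (5 and 2 at an unadjusted p under 0.05), with medians of -0.18 and 0.04. With a library-set term 2 of the 18, Rtl6 and Rtl8b, were lower with FSK. That fit called 1622 features in FSK against DMSO, beside 139 without the term. Peg10, an imprinted gene, was at 11.97, 4.49 and 11.4 CPM in DMSO, DHPG and FSK, and passed in FSK against DHPG (1.34 ± 0.45, adjusted p = 0.036). In that comparison 6 others were lower (14.4% of all features), including Rtl6 (-0.35 ± 0.11, adjusted p = 0.030) and Zcchc12 (-0.50 ± 0.17, adjusted p = 0.037). With a library-set term 1 of the 18 was higher and 3 lower in FSK against DHPG, in a fit that called 4007 features. Without FSK 4 and FSK 5, 0 of the 18 passed there, in a fit that called 3 features. None of the 18 had a larger fold change than Arc against DMSO with either agent.

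The receptor pathways that the agents act on were described by 24 genes each. In the group I metabotropic receptor pathway, Shank3, a postsynaptic scaffold gene, fell with FSK from 133 to 77.3 CPM (-0.78 ± 0.12, adjusted p = 0.010), the 1 of 24 that passed, and with DHPG 0 of 24 passed in edgeR (1 at an unadjusted p under 0.05). In the cAMP and PKA pathway 0 of 24 passed with FSK and 0 with DHPG (6 and 1 at an unadjusted p under 0.05). With a library-set term 2 of the first 24 (Shank3 and Gna11) and 1 of the second (Adcy9) were lower with FSK. That fit called 1622 features in FSK against DMSO, beside 139 without the term. In FSK against DHPG, where 16.3% of all features were higher and 14.4% lower, the counts were 3 higher and 6 lower for the first, with Rps6ka3 (0.73 ± 0.15, adjusted p = 0.016) and Gna11 (-0.58 ± 0.13, adjusted p = 0.016), and 1 higher and 4 lower for the second, with the adenylyl cyclase gene Adcy9 at -0.41 ± 0.10 (adjusted p = 0.017). None of these calls in FSK against DHPG was left without FSK 4 and FSK 5 (0 of 24 and 0 of 24). Without those libraries the fit called 3 features in all. In it 11 and 8 genes had an unadjusted edgeR p under 0.05, beside 12 and 7 with all libraries.

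Markers of other cells were high in some FSK libraries. All 12 microglia markers had positive values in FSK against DMSO (median 3.27, 0 passing in edgeR, 12 at an unadjusted p under 0.05), and the median was 1.18 over 11 tested without FSK 4 and FSK 5. With a library-set term 5 of the 12 passed, all higher, in a fit that called 1622 features. Against DHPG, 9 of 12 microglia, 5 of 10 oligodendrocyte-lineage and 4 of 8 astrocyte markers were higher with FSK, and 1 oligodendrocyte-lineage marker was lower. Of all features, 16.3% were higher and 14.4% lower in that comparison. With a library-set term, 0 of 12 microglia markers passed in FSK against DHPG, in a fit that called 4007 features. In it 4 oligodendrocyte-lineage markers were higher and 1 lower, and 2 astrocyte markers were higher and 1 lower. Without FSK 4 and FSK 5, 0 markers of these 3 lists passed, and 3 features passed in all. The summed level of the microglia markers ran from 23.0 to 40.5 CPM in DMSO, 27.3 to 55.2 in DHPG and 25.8 to 379 in FSK. Oligodendrocyte-lineage markers (10 of 11 tested) summed to 541 to 817, 545 to 849 and 570 to 1449 CPM. For inhibitory neurons (10 of 10) the sums were 402 to 663, 547 to 630 and 292 to 630 CPM, and for cycling cells (8 of 8) 66.1 to 147, 59.0 to 178 and 84.1 to 218. Endothelial markers (5 of 7 tested) summed to 13.1 to 47.4, 6.46 to 15.0 and 9.98 to 113 CPM, and fibroblast, mural and meningeal markers (9 of 9) to 88.3 to 338, 54.9 to 155 and 59.5 to 421. Without FSK 4 and FSK 5, Arc in FSK against DMSO was 2.33 with an adjusted p of 0.0062, slightly above its value with them.

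The genes measured beside Arc on chromosome 15 were not higher with FSK. Adgrb1, an adhesion receptor gene 79615 bases away, had 177 ± 10.8 CPM in DMSO (SD, n = 4), 152 ± 32.2 in DHPG (n = 6) and 116 ± 30.5 in FSK (n = 6). Its difference was -0.61 ± 0.18 with FSK (adjusted p = 0.096) and -0.22 ± 0.18 with DHPG (adjusted p = 0.54). Jrk, on the other side at 29841 bases, has a span that overlaps those of Gm32994 and 4933427E11Rik. It had 18.7 ± 1.19, 18.9 ± 2.67 and 13.9 ± 0.80 CPM, and every FSK library lay below every other library. Its FSK difference was -0.43 ± 0.10 against DMSO (adjusted p = 0.065) and passed against DHPG at -0.44 ± 0.09 (adjusted p = 0.016). Mroh4 had 0 counts in all libraries, and 4933427E11Rik had 91 counts in total and was not tested. The long noncoding genes Gm32168 and Gm32994, the latter starting 442 bases from Arc, were not analysed here.

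The miRNA libraries held 4 miRNAs that have been reported to act on Arc mRNA. The labels do not say whether miRNA and total RNA libraries of the same number came from the same culture. Their mature sequences are given 5′ to 3′ from RefSeq (GRCm38.p6), with the seed, bases 2 to 8, in capitals, because the seed is what pairs with a target site.
miR-34a-5p: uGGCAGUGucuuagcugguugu
miR-193a-3p: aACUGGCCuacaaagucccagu
miR-326-3p: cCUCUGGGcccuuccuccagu
miR-19a-3p: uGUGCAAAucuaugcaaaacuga
No seed is shared between the 4. They lie on the plus strand at chr4:150068473-150068494, chr11:79712009-79712030, chr7:99552328-99552348 and chr14:115044048-115044070.

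Only miR-34a-5p passed in any comparison. It had 57.1, 154, 140 and 113 CPM in DMSO 1 to 4, 49.4 to 83.4 CPM in DHPG (median 71.5) and 93.1 to 259 CPM in FSK (median 104). Every FSK library was above every DHPG library, and FSK 4 and FSK 5, at 259 and 236 CPM, were far above the other 4 FSK libraries, at 93.1 to 105. The difference of FSK from DHPG was 1.11 ± 0.30 on the log2 scale (edgeR adjusted p = 0.036), in a comparison in which 83 of 556 miRNAs passed (14.9%; 34.4% had an unadjusted p under 0.05). The call was lost in 6 of 16 fits that left out 1 library, for which the adjusted p ran up to 0.096 (0.096 without FSK 4, at 0.89, and 0.091 without FSK 5, at 0.92).

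Against DMSO none of the 4 passed. In edgeR 0 of 556 miRNAs passed with FSK and 0 with DHPG (53, or 9.53%, and 61, or 11%, at an unadjusted p under 0.05). miR-34a-5p stood at 0.36 ± 0.33 with FSK (adjusted p = 0.74) and -0.74 ± 0.32 with DHPG (adjusted p = 0.40). Its lowest DMSO value was in the miRNA library DMSO 1.

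The other miRNAs gave smaller or less certain differences. miR-326-3p had 152 ± 28.4 CPM in DMSO (SD, n = 4), 122 ± 20.2 in DHPG (n = 6) and 123 ± 15.1 in FSK (n = 6), with overlapping groups. miR-19a-3p had 6.56 ± 1.19, 6.16 ± 2.71 and 7.23 ± 1.11 CPM from 3 to 53 counts a library. miR-193a-3p rested on 0 to 22 counts a library, with means of 2.37, 0.89 and 2.38 CPM. Its differences were -1.30 ± 0.70 for DHPG against DMSO (adjusted p = 0.42) and 1.29 ± 0.68 for FSK against DHPG (adjusted p = 0.19).

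**Figure D4:**
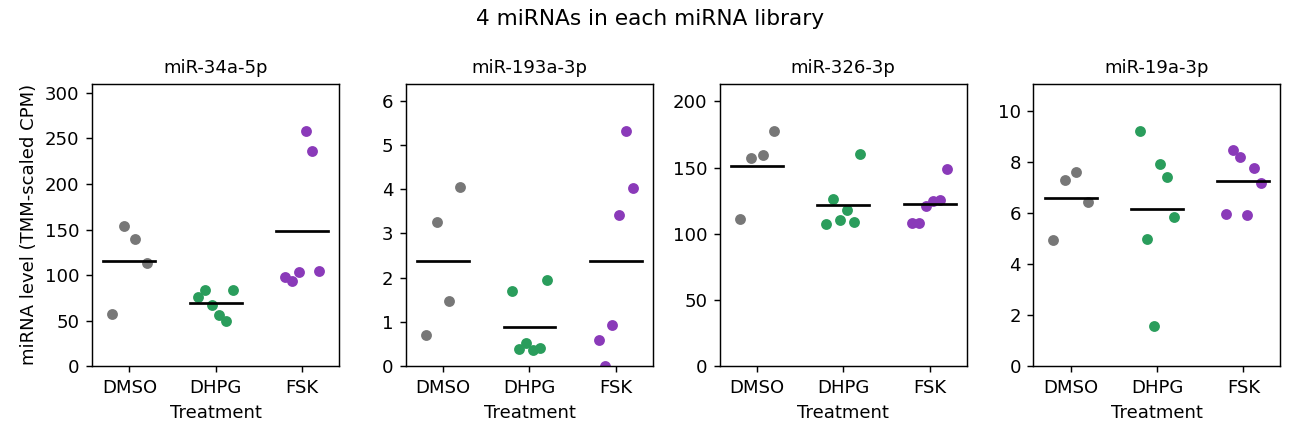
Level of 4 miRNAs (TMM-scaled CPM, linear axes starting at 0, with a different scale in each panel) in the 4 DMSO, 6 DHPG and 6 FSK miRNA libraries. Points are libraries and black lines are group means. In the miR-34a-5p panel 2 FSK libraries, at 259 and 236 CPM, stand far above the other 4.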

How the data were processed

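The submitters' processing notes name Salmon, DESeq and the build GRCm38, without versions. Per the labels' protocols, RNA was extracted with Trizol and chloroform, and total RNA libraries were made with a stranded total RNA kit. The deposited tables hold estimated counts, of which 26.6% (total RNA) and 3.68% (miRNA) are not whole; they were rounded before testing, and every Arc count was whole. Columns named as controls were taken as the DMSO samples of the same number. The authors' deposited comparison tables give a mean normalised signal, a log2 fold change with its error on the log2 scale, a statistic (a score) and p-values; these are quoted only where that table is named.

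Depth ran from 20677117 to 59958600 counts in total RNA and from 1748819 to 6756996 in miRNA. The test was edgeR 4.0.16 (R 4.3.3), quasi-likelihood with robust estimation, TMM scaling and filterByExpr with a minimum count of 10, with 3 groups in 1 model per assay and Benjamini-Hochberg adjustment at 0.05; 17173 total RNA and 556 miRNA features were tested. Fold changes are given ± SE. Log2 CPM used a prior count of 2. Single values over libraries were tested by exact two-sided permutation. The deep set is defined by a total above 30000000 counts. Scripts were tested on simulated data. Alternatives used DESeq2 1.42.0 and limma 3.58.1, other scalings and filters, a library-set term, a replicate block, and single libraries left out.

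Arc, the gene lists and the miRNAs were chosen with earlier results of these data known. Named genes are up to 4 passing list members of smallest p per comparison, or 2 as values where none passed, the genes most and least like Arc by Pearson correlation, the nearest 3 genes on each side, and the 4 miRNAs; the text prints a selection of them, and part of the rest is not reported here. Npas4 was picked after its values were seen. No sequence of Arc itself is used here.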

Additional observations from a re-analysis of the deposited data

Results flagged for a closer look

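Within groups of 4 to 6 libraries, 24 sets of values were checked for a library far from the others, with Dixon's 95% limit on the gap as a share of the range; chance passes about 1 group in 20, and 2 passed. Fosb in DMSO 2 was at 11.3 CPM against 2.98 to 3.98 CPM in the other DMSO libraries (share 0.88, limit 0.829), in the library that also held the highest Arc, Fos and Npas4 levels of the group. miR-326-3p in the miRNA library DHPG 6 was at 160.6 CPM against 107 to 126 CPM in the other DHPG libraries (share 0.65, limit 0.625). The total RNA library of that number is the only deep DHPG library, and the labels do not say whether both came from the same culture.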

How the results depend on the processing

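Arc in FSK against DMSO kept its call in 17 of 17 alternatives (log2 1.67 to 3.45) and in 16 of 16 fits with 1 library left out (1.96 to 2.67, adjusted p up to 0.049). Arc in DHPG against DMSO stayed positive throughout and passed under 4 alternatives: DESeq2 (1.76), limma-voom with quality weights (1.85), DESeq2 on the 2 groups without a filter (1.76), and, chosen after seeing the data, a library-set term without DMSO 2 (2.08); with 1 library left out it ran from 1.53 to 2.24 and passed without DMSO 2 alone. Arc in FSK against DHPG passed only with limma-voom (0.63). Its exact permutation difference ran from 0.33 to 0.54 with 1 library left out, over excitatory markers from 0.43 to 0.64. The cause of these changes was not tested.

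Counts of features called moved far more. For FSK against DMSO (139) they were 62 with library totals, 1285 with DESeq2, 6051 with limma-voom, 66 without a filter, 83 with only the 2 groups, 1622 with a library-set term, 38 without FSK 4 and FSK 5, 56 with both of these changes, 1442 with DESeq2 on the 2 groups, and 12 to 427 with 1 library left out. For DHPG against DMSO (1) they were 7 with DESeq2, 5960 with limma-voom, 240 with DESeq2 on the 2 groups, and 0 to 5 with 1 library left out. In edgeR they were 0 with only the 2 groups, with the library-set term, without FSK 4 and FSK 5, and with both of these changes (2703, 400, 3425 and 913 at an unadjusted p under 0.05). For FSK against DHPG (5283) they were 2510 with library totals, 2905 without a filter, 3 without FSK 4 and FSK 5, 1551 with a library-set term as well, and 1804 to 5798 with 1 library left out. With library totals the calls were 49 higher and 13 lower in place of 60 and 79 (FSK against DMSO), and 1760 and 750 in place of 2803 and 2480 (FSK against DHPG). The number of the 4 miRNAs called in FSK against DHPG ran from 0 to 1 with 1 library left out.

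Same-numbered libraries did not consistently deviate together (14 pairs, correlations -0.41 to 0.39, 3 over 0.1). Such correlations cannot decide whether the numbers pair the samples, and the labels do not say. With a replicate block Arc stood at 2.35, 1.90 and 0.44 in the 3 comparisons with no call changed, and the block moved the features called to 531 for FSK against DMSO and to 0 for DHPG against DMSO (edgeR; 2958 at an unadjusted p under 0.05). As to depth, the lowest Arc value rests on 485 counts, and miR-193a-3p on 0 to 22 counts a library.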
